A study of Mus musculus with 15 samples.

Results

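A group of 104 genes, of 14392 in the expression table, appeared for the first time in WT mouse embryos at the 2-cell stage and was more than 3-fold lower in 2-cell embryos whose mothers had lost Usp16 in their oocytes (cKO). The genes were chosen by their expression values in FPKM, the number of sequenced fragments relative to exon length and to all mapped fragments, so that levels can be set side by side between genes. Each was at 1 FPKM, the floor to which all lower values had been set, in both WT zygote libraries, and at 10 FPKM or more in both WT 2-cell libraries. In addition, the mean of the 2 cKO 2-cell libraries was more than 3-fold below the mean of the 2 WT 2-cell libraries. Symbols starting with Zscan4 or Zfp were left out, which removed 2 and 3 genes that otherwise met these conditions. These values chose the members, so the gain in WT embryos and the low level in cKO 2-cell embryos are described below without a test. Only the cKO zygote libraries took no part in the choice. A further 422 genes had the same WT pattern but a cKO mean above the limit, so that the members made up 19.8% of the 526 genes first seen in WT 2-cell embryos.

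The study followed the role of the histone H2A deubiquitinase USP16 in the transition from maternal to zygotic control. RNA-seq was performed on zygotes and 2-cell embryos of both genotypes, with 2 libraries for each of these 4 groups (8 in all), and each library was made by Smart-seq2 from 10 pooled embryos. WT mothers were Usp16+/+ and cKO mothers were Usp16fl/fl;Gdf9-Cre, all on a C57BL/6 background, with Cre driven by the oocyte-specific Gdf9 promoter. Young superovulated females were mated with WT males, so that cKO embryos lacked maternal USP16 but received an intact Usp16 allele from the father. Nothing in the sources says that the 2 libraries of a group came from separate litters or days, so p-values measure the spread between these libraries, which may be technical.

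In the mouse, the fertilised egg starts with RNA stored by the oocyte, and its own genome is switched on in a minor wave in the zygote and a major wave at the 2-cell stage. Monoubiquitin on histone H2A, placed by the polycomb repressive complex, is associated with gene silencing, and USP16 is one of the enzymes that remove it. A gene without detectable stored RNA whose transcript is first seen at the 2-cell stage therefore gives a view of zygotic transcription with no maternal RNA detected above the floor. Stored RNA below 1 FPKM, or not captured in the zygote libraries, would not be seen, and new transcription was not measured in these libraries.

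Usp16 itself, located on chromosome 16 from 87454948 to 87483762 on the forward strand of mm9, was examined first as a check of the sample labels. Its level was 184 and 187 FPKM in WT zygotes and 16.8 and 22.0 FPKM in cKO zygotes. Both cKO zygote libraries were far below both WT zygote libraries, as their labels require. On a scale of log2(FPKM + 1), cKO minus WT came to -3.21 with a standard error of 0.34, and limma gave an adjusted p = 0.191 (Benjamini-Hochberg over 14392 genes). It passed the threshold of 0.05 after median-ratio scaling of the libraries, with an adjusted p = 0.0324 from limma, and over all alternatives the adjusted p ranged from 0.0324 to 0.842. With 2 libraries per group, 0.333 is the smallest p that an exact permutation test allows. At the 2-cell stage, Usp16 was at 168 and 183 FPKM in WT embryos and at 168 and 84.8 FPKM in cKO embryos. All 4 libraries now held Usp16 RNA, with cKO replicate 1 just below the WT libraries and cKO replicate 2 lower. The log2 difference was -0.55 (standard error 0.34, adjusted p = 0.263 from limma), and without cKO 2-cell replicate 1 it was -1.04 (adjusted p = 0.0154 from limma). Over all alternatives the adjusted p at this stage ranged from 0.0154 to 0.857. Usp16 RNA at this stage therefore does not check the cKO 2-cell labels.

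Summed over the 104 members, FPKM was 2434 and 3175 in the WT 2-cell libraries and 499 and 646 in the cKO 2-cell libraries. The median member stood at 17.3 and 20.2 FPKM in WT and at 3.05 and 3.59 FPKM in cKO 2-cell embryos. In these sums and medians both cKO libraries were low, close to each other and apart from both WT libraries. The choice of the members by these values largely fixes this separation, and nothing is read from it. In the whole table, the sum of FPKM was 577483 and 547752 in WT and 582343 and 770989 in cKO 2-cell embryos, with cKO replicate 2 above the others. No read counts are part of FPKM values, which leaves the sequencing depth unknown, and a value at the floor only sets an upper limit. In libraries of pooled embryos, fewer cells that express a gene and less RNA per cell cannot be told apart.

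**Figure D1:**
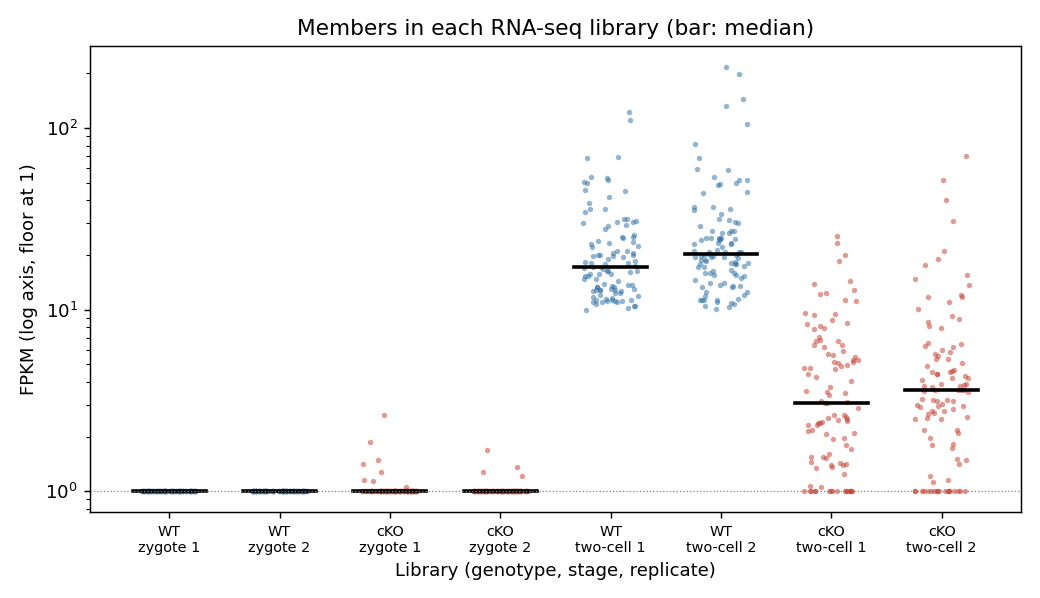
FPKM of each of the 104 members (points, log axis) in the 8 RNA-seq libraries (horizontal axis, WT in blue and cKO in red), with the median of each library as a bar and the floor of 1 FPKM as a dotted line. The WT 2-cell medians are 17.3 and 20.2 FPKM and the cKO 2-cell medians 3.05 and 3.59 FPKM, and in zygotes all 4 medians are at the floor.

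The mean of the members in WT 2-cell embryos ranged from 11.1 to 155 FPKM with a median of 20.3, so most were of low to moderate abundance, and 53 of them reached a mean of 20 FPKM. In cKO 2-cell embryos the median of their means was 3.62 FPKM. With floor values counted as 1 FPKM, the fold between the means had a median of 5.15. It lay between 3 and 4 for 37 members, between 4 and 5 for 10, between 5 and 10 for 38 and above 10 for 19. Among the 422 other genes first seen in WT 2-cell embryos, the median ratio of cKO to WT was 0.867, compared with 0.194 among the members and 0.771 in the whole table. Both cKO values lay below both WT values for 103 of the 104 members (43.4% of all genes, and 45.9% of the 5817 genes with at least 10 FPKM in both WT 2-cell libraries), a count that the choice of members largely fixes and from which nothing is read. The exception was LOC100302567, a gene of unknown role with 53.3 and 217 FPKM in WT 2-cell embryos, a floor value in cKO replicate 1 and 70.5 FPKM in cKO replicate 2. The cKO pair was split, with replicate 1 at the floor, and replicate 2 exceeded WT replicate 1, so that the groups overlapped. For the same contrast, limma called 97 members lower and 0 higher (24.6% and 6.16% of all genes), and nothing is read from this either. A fit of the 2-cell libraries alone called 0 of the members and 0 of all genes, with 88 members lower at an unadjusted p under 0.05 (23.7% of all genes).

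The boundary of the group is not a gap in the data. Just inside the limit, Zbtb5, a zinc finger transcription factor, had a ratio of cKO to WT means of 0.333, Dnd1, an RNA-binding protein of germ cells, one of 0.333, and the noncoding gene 0610009B14Rik one of 0.332. Just outside it stood 1810032O08Rik at 0.337, the kinase gene Stk17b at 0.338 and the adaptor subunit gene Ap4m1 at 0.340. Dnd1 had 11.4 and 13.6 FPKM in WT and 5.09 and 3.21 FPKM in cKO 2-cell embryos, and Stk17b had 21.0 and 23.1 FPKM in WT and 7.28 and 7.62 FPKM in cKO 2-cell embryos. In both genes the 2 cKO libraries lay below the 2 WT libraries, and only the ratio of the means placed one in the group and not the other.

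The number of members depends on how the libraries are scaled. As deposited, the ratio of cKO to WT 2-cell means had a median of -0.38 on the log2 scale over all genes, and the members' median was -2.36. After median-ratio scaling, which divides each library by the median of its ratios to the genes' geometric means, the median of all genes was 0.10 and that of the members -1.88, and when the conditions were applied to these scaled values 50 genes passed, all of them among the 104. With libraries scaled to an equal sum, 136 genes passed, the 104 members and 32 others. All 104 members remained below their WT mean under both scalings and when libraries were scaled to an equal sum. Across the table, limma called 887 genes higher and 3538 lower in cKO 2-cell embryos on the deposited values, 1741 higher and 1879 lower after median-ratio scaling, and 1370 higher and 1464 lower after quantile normalization.

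**Figure D2:**
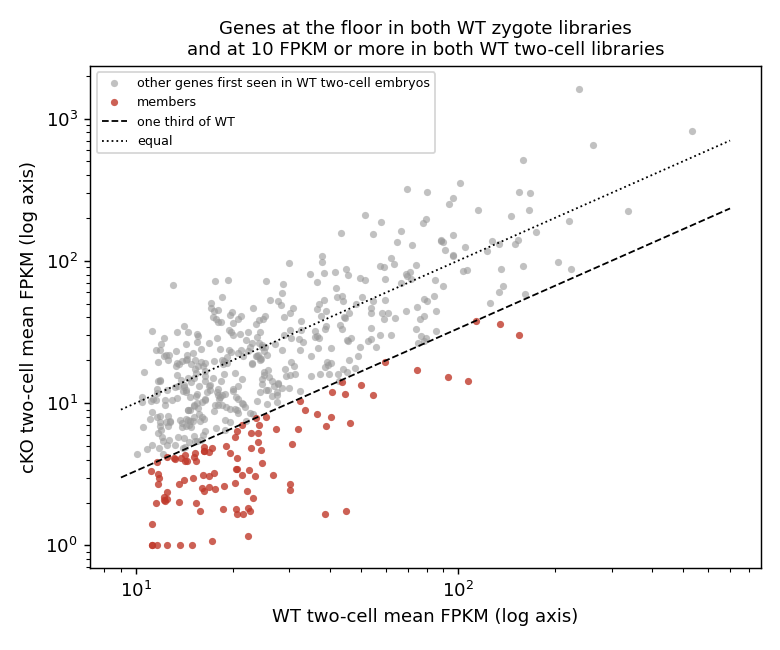
Mean FPKM in cKO 2-cell embryos (vertical, log axis) against mean FPKM in WT 2-cell embryos (horizontal, log axis) for the 526 genes first seen in WT 2-cell embryos, with the 104 members in red and the 422 others in grey. The dashed line marks a 3-fold lower cKO mean and the dotted line equal means, and the members form the lower edge of a continuous cloud.

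The 4 members with the highest WT mean were Gm4971, LOC100302567, 2810008D09Rik and Gm12794. Gm4971, annotated as a pseudogene, led them with 111 and 199 FPKM in WT and 19.99 and 40.3 FPKM in cKO 2-cell embryos. Gm12794, of the Prame family of repeated germline and early embryo genes, was at 69.1 and 145 FPKM in WT and at 11.3 and 17.5 FPKM in cKO embryos. In both genes WT replicate 2 was higher than WT replicate 1, and both cKO libraries were well below either, with folds of 5.13 and 7.44 between the means. The group held 3 related genes of the Dub and Usp17 family of deubiquitinases, a cluster of near-identical copies on chromosome 7. Usp17l5 had 38.8 and 53.9 FPKM in WT and 3.51 and 11.02 FPKM in cKO 2-cell embryos. Dub1, first described as a cytokine-induced deubiquitinase of blood cells, had 20.03 and 20.7 FPKM in WT and 2.86 and 2.65 FPKM in cKO embryos. Usp-ps, annotated as a pseudogene, had 12.9 and 17.8 FPKM in WT and 1.06 and 2.94 FPKM in cKO embryos. All 3 were higher in both WT libraries than in either cKO library. Since their copies can share reads of 50 bases, the split of the signal among them is uncertain. Their relative Dub1a, which is not a member, was at 127 and 197 FPKM in WT and at 47.9 and 68.6 FPKM in cKO 2-cell embryos. It was also lower in both cKO libraries, but by less than 3-fold.

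Gm13034, a pseudogene, stood at 23.4 and 49.5 FPKM in WT and at 12.9 and 3.81 FPKM in cKO 2-cell embryos, and 4933411G11Rik, named Spdye4b in RefSeq, at 30.6 and 33.5 FPKM in WT and at 1.40 and 11.7 FPKM in cKO embryos. The cKO libraries disagreed in opposite ways in these genes, replicate 1 being the higher for Gm13034 and replicate 2 for 4933411G11Rik, yet all 4 cKO values were below the WT values of the same gene. Gm2016 had 50.5 and 68.1 FPKM in WT and 8.17 and 30.7 FPKM in cKO embryos, and BC080695 had 49.8 and 59.3 FPKM in WT and 1.95 and 21.0 FPKM in cKO embryos. In both of these genes cKO replicate 2 was by far the higher of the cKO pair, although still below the WT pair.

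The group held 11 transcription factors and transcriptional regulators, with WT means from 11.3 to 40.4 FPKM and a median fold of 5.03. Hes1, a basic helix-loop-helix repressor that acts downstream of Notch, was at 28.9 and 51.9 FPKM in WT and at 12.3 and 3.73 FPKM in cKO 2-cell embryos. Hesx1, a homeobox repressor of forebrain and pituitary development that is also present in pluripotent cells, was at 31.5 and 35.5 FPKM in WT and at 6.20 and 11.7 FPKM in cKO embryos. Both were clearly present in cKO embryos, at levels below either WT library, with folds of 5.03 and 3.74. Tsc22d3, the glucocorticoid-induced leucine zipper, had 36.0 and 24.1 FPKM in WT, 4.43 FPKM in cKO replicate 1 and a value at the floor in cKO replicate 2. Its cKO values were low or at the floor, at least 11.1-fold lower.

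Lmx1a, a LIM homeobox factor of dopaminergic neurons, was at 18.5 and 16.4 FPKM in WT and at 1.39 and 5.10 FPKM in cKO 2-cell embryos. Ier2, an immediate early gene, was at 22.1 and 24.9 FPKM in WT and at 3.56 and 2.57 FPKM in cKO embryos. Junb, an AP-1 subunit that is also an immediate early gene, had 11.3 FPKM in WT replicate 1 and 11.3 FPKM in WT replicate 2, and was at the floor in both cKO libraries. In these 3 genes the WT libraries were close together and the cKO libraries low without overlap, by 5.39-fold for Lmx1a, 7.66-fold for Ier2 and at least 11.3-fold for Junb. Zbtb5, at the edge of the group, had 22.9 and 24.4 FPKM in WT and 9.46 and 6.31 FPKM in cKO embryos, the smallest difference among the transcription factors.

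Among 5 kinases and phosphatases of signalling pathways, cKO replicate 1 was the higher cKO library for all 5. Dyrk3, a dual-specificity kinase that dissolves stress granules, was at 31.5 and 49.7 FPKM in WT and at 13.9 and 10.1 FPKM in cKO 2-cell embryos. Dusp6, the cytoplasmic phosphatase that inactivates ERK, was at 25.1 and 19.4 FPKM in WT, at 1.35 FPKM in cKO replicate 1 and at the floor in cKO replicate 2. The cKO level was thus low but well measurable for Dyrk3, 3.38-fold under WT, and next to the floor for Dusp6, at least 19.0-fold under WT. Sphk1, a sphingosine kinase, had 16.3 and 20.9 FPKM in WT, 2.62 FPKM in cKO replicate 1 and a floor value in cKO replicate 2. Plk2, a polo-like kinase, had 12.02 and 18.5 FPKM in WT and 5.13 and 3.80 FPKM in cKO embryos. Tssk6, a testis-specific serine kinase, had 11.03 and 14.1 FPKM in WT, 3.77 FPKM in cKO replicate 1 and a floor value in cKO replicate 2. None of these 3 kinase genes overlapped between genotypes, with folds of at least 10.3 for Sphk1, 3.42 for Plk2 and at least 5.26 for Tssk6.

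Secreted ligands and peptides made up 7 members. Gal, which encodes the neuropeptide galanin, was at 30.4 and 24.2 FPKM in WT and at 8.82 and 4.30 FPKM in cKO 2-cell embryos. Nucb2, the precursor of nesfatin, was at 16.4 and 24.5 FPKM in WT, at 5.90 FPKM in cKO replicate 1 and at the floor in cKO replicate 2. Both were lower in both cKO libraries, with means 4.16-fold lower for Gal and at least 5.92-fold lower for Nucb2. The beta-defensin gene Defb13 had 24.8 and 19.8 FPKM in WT, 2.64 FPKM in cKO replicate 1 and a floor value in cKO replicate 2, and the beta-defensin gene Defb48 had 15.8 and 19.4 FPKM in WT and 1.36 and 3.61 FPKM in cKO embryos. These antimicrobial peptide genes were low or at the floor in cKO embryos and higher in both WT libraries. Rln1, a relaxin, had 13.6 and 11.3 FPKM in WT and was at the floor in both cKO libraries, while its relative and neighbour Insl6 had 16.4 and 16.0 FPKM in WT, 5.26 FPKM in cKO replicate 1 and a floor value in cKO replicate 2. The pair was seen in both WT libraries and was lost to the floor in cKO replicate 2, with some Insl6 left in cKO replicate 1, which gives at least 12.5-fold for Rln1 and at least 5.16-fold for Insl6. Cthrc1, a secreted collagen triple helix repeat protein, had 13.3 and 19.4 FPKM in WT, a floor value in cKO replicate 1 and 8.17 FPKM in cKO replicate 2, so its cKO libraries stood far apart.

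Of the 9 receptors and channels, Gpr161, a ciliary receptor that restrains Hedgehog signalling, had the highest WT mean, with 16.9 and 36.5 FPKM in WT and 2.38 and 3.84 FPKM in cKO 2-cell embryos. Bambi, a pseudoreceptor for TGF-beta family ligands, was at 23.5 and 24.7 FPKM in WT and at 4.76 and 9.27 FPKM in cKO embryos. The WT libraries agreed closely for Bambi and less so for Gpr161, and in both genes the cKO pair lay below, by 8.59-fold for Gpr161 and 3.44-fold for Bambi. Fzd4, a receptor for Wnt ligands and Norrin, was at 17.2 and 15.4 FPKM in WT and at 2.07 and 2.78 FPKM in cKO embryos. Tnfrsf13b, a receptor of B cells for the cytokines BAFF and APRIL, was at 25.8 and 22.2 FPKM in WT and at 6.40 and 6.03 FPKM in cKO embryos. Replicates agreed within each genotype for these receptors, whose means differed 6.73-fold for Fzd4 and 3.87-fold for Tnfrsf13b. Lpar6, a receptor for lysophosphatidic acid, had 11.1 and 18.8 FPKM in WT, and Gpr83, an orphan receptor, had 11.2 and 11.3 FPKM in WT, and each was at the floor in both cKO libraries. Of the 2 olfactory receptor genes among the members, Olfr376 had 15.4 and 18.4 FPKM in WT and 3.47 and 5.53 FPKM in cKO embryos.

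The 8 cytoskeleton and junction genes included both keratin and tight junction components of epithelia. Cldn6, a claudin of embryonic epithelia, was at 19.0 and 59.1 FPKM in WT and at 12.2 and 1.49 FPKM in cKO 2-cell embryos. Cldn3, another claudin, was at 13.3 and 29.8 FPKM in WT and at 1.24 and 2.102 FPKM in cKO embryos. WT replicate 2 was the higher WT library for both claudins, and cKO values were lower than either WT value, although cKO replicate 1 of Cldn6 was nearer to WT replicate 1 than to cKO replicate 2. Krt18, a keratin of simple epithelia, had 10.8 and 13.7 FPKM in WT, 3.38 FPKM in cKO replicate 1 and a floor value in cKO replicate 2. Its partner Krt8 missed the minimum of 10 FPKM, with 9.91 and 9.01 FPKM in WT and floor values in both cKO 2-cell libraries. The keratin pair was thus low to moderate in WT and low or at the floor in cKO embryos. Nefl, the neurofilament light chain, had 10.4 and 17.1 FPKM in WT and was at the floor in both cKO libraries, at least 13.8-fold lower. Tagln2, an actin-binding transgelin, was at 20.4 and 30.3 FPKM in WT and at 7.97 and 7.97 FPKM in cKO embryos, and Tuba1a, an alpha tubulin, at 13.0 and 17.1 FPKM in WT and at 2.36 and 3.63 FPKM in cKO embryos. Both stayed measurable in cKO embryos, 3.18-fold lower for Tagln2 and 5.03-fold lower for Tuba1a.

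Enzymes and metabolite-binding proteins were the largest named group with 19 members and a median fold of 5.90, and they held the 2 members with the largest fold. Gstm1, a glutathione S-transferase, was at 45.5 and 44.6 FPKM in WT, at 2.50 FPKM in cKO replicate 1 and at the floor in cKO replicate 2. Abhd14b, an alpha/beta hydrolase that removes acetyl groups from lysine, was at 41.5 and 36.0 FPKM in WT, at 2.32 FPKM in cKO replicate 1 and at the floor in cKO replicate 2. Both genes were moderate and steady in WT embryos and low or at the floor in cKO embryos, at least 25.7-fold lower for Gstm1 and at least 23.4-fold lower for Abhd14b. Ficd, which attaches AMP to the chaperone BiP in the endoplasmic reticulum, was at 53.6 and 133 FPKM in WT and at 18.4 and 11.98 FPKM in cKO embryos. Fahd1, an oxaloacetate decarboxylase of mitochondria, was at 34.3 and 26.9 FPKM in WT and at 1.54 and 8.85 FPKM in cKO embryos. Prss8, the membrane-anchored protease prostasin, was at 29.1 and 31.4 FPKM in WT, at the floor in cKO replicate 1 and at 3.92 FPKM in cKO replicate 2. These enzymes were lower in both cKO libraries, but Fahd1 and Prss8 had one cKO library near or at the floor and one above it, so their folds of 5.90 and at least 12.3 rest on unlike replicates.

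Both a carrier and a catabolic enzyme of retinoic acid were members. Crabp1, the cellular retinoic acid binding protein, was at 15.7 and 27.0 FPKM in WT and at 4.06 and 2.16 FPKM in cKO 2-cell embryos. Cyp26a1, which oxidises retinoic acid, was at 12.3 and 11.03 FPKM in WT and at the floor in both cKO 2-cell libraries. Both were present in each WT library and low or at the floor in each cKO library, by 6.85-fold for Crabp1 and at least 11.7-fold for Cyp26a1. Pif1, a DNA helicase that unwinds G-quadruplexes, was at 17.9 and 26.6 FPKM in WT and at 1.79 and 3.04 FPKM in cKO embryos, with both cKO libraries close to the floor.

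The 8 RNA-binding and RNA-processing genes had the smallest median fold of the named groups, at 3.82. Rbmx, an X-linked splicing regulator, was at 68.5 and 81.2 FPKM in WT and at 25.5 and 8.55 FPKM in cKO 2-cell embryos. Pspc1, a paraspeckle protein, was at 19.8 and 23.0 FPKM in WT and at 7.84 and 6.20 FPKM in cKO embryos. Rnh1, the inhibitor of RNase A family enzymes, was at 13.7 and 20.1 FPKM in WT and at 2.56 and 3.61 FPKM in cKO embryos. All 3 were still measurable in both cKO libraries, below both WT libraries, with folds of 4.40 for Rbmx, 3.04 for Pspc1 and 5.48 for Rnh1. Ang, the secreted ribonuclease angiogenin that Rnh1 binds, had 11.7 and 10.8 FPKM in WT, a floor value in cKO replicate 1 and 1.81 FPKM in cKO replicate 2. Mrps34, a protein of the small mitochondrial ribosomal subunit, had 10.0 and 13.4 FPKM in WT and 2.52 and 2.93 FPKM in cKO embryos. Ang and Mrps34 were near the minimum of 10 FPKM in WT embryos, so that little range was left above the floor.

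A group of 8 genes was set down by hand as noncoding, although D430020J02Rik, Gm9958 and 4930479M11Rik among them are protein coding in the GENCODE annotation of mm9. The most abundant, 2810008D09Rik, was at 123 and 105 FPKM in WT and at 23.4 and 52.1 FPKM in cKO 2-cell embryos. The long intergenic RNA 3110056K07Rik was at 45.0 and 44.2 FPKM in WT and at 8.33 and 14.7 FPKM in cKO embryos. Both remained well above the floor in cKO embryos, 3.03-fold and 3.87-fold under WT. In contrast, 4930547E08Rik, also a long intergenic RNA, had 18.2 and 16.3 FPKM in WT, a floor value in cKO replicate 1 and 1.15 FPKM in cKO replicate 2, and so was almost absent from both cKO libraries, at least 16.1-fold lower. Among members with other roles, Crip1, a small LIM domain protein, was at 51.4 and 48.6 FPKM in WT and at 11.2 and 15.5 FPKM in cKO embryos, and Tmem79, a membrane protein of the skin barrier, at 35.8 and 51.5 FPKM in WT and at 14.3 and 13.7 FPKM in cKO embryos. Replicates agreed in each genotype for Crip1 and in cKO embryos for Tmem79, and neither gene overlapped between genotypes. The uncharacterised gene 1110017F19Rik had 22.3 and 22.9 FPKM in WT, a floor value in cKO replicate 1 and 2.51 FPKM in cKO replicate 2, at least 12.9-fold lower.

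**Figure D3:**
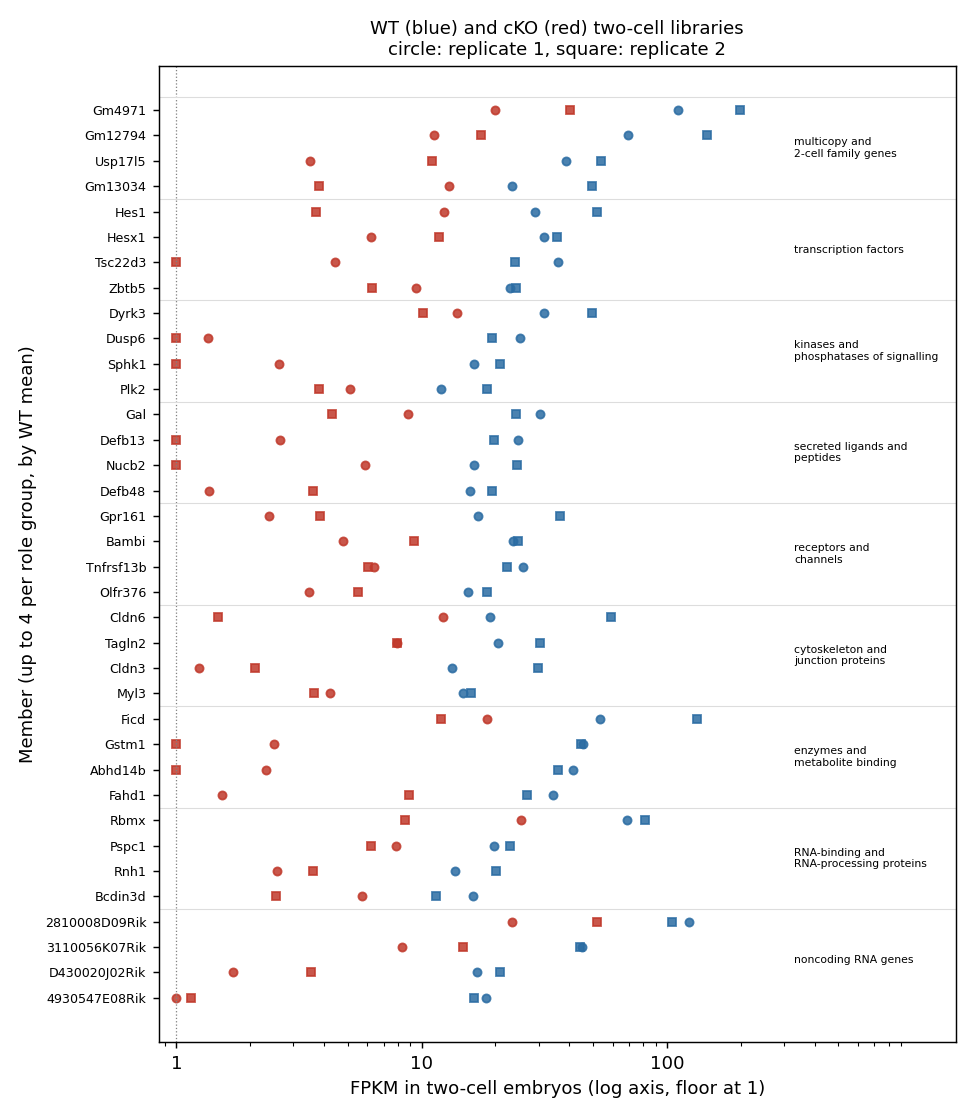
FPKM in the 2 WT (blue) and 2 cKO (red) 2-cell libraries (horizontal log axis, circles for replicate 1 and squares for replicate 2) for the 4 members with the highest WT mean in each named role group (vertical axis, without the members of other or unknown role), with the floor of 1 FPKM as a dotted line. In each row shown, both red points lie to the left of both blue points, from Gstm1 with 45.5 and 44.6 FPKM in WT and one cKO value at the floor to 2810008D09Rik with 23.4 and 52.1 FPKM in cKO.

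In cKO zygotes, the libraries that did not enter the choice, 94 of the 104 members were at the floor in both libraries, as all were in WT zygotes. Above the floor in at least 1 cKO zygote library were 10 members, or 9.62%, a share near the 10.4% among all 4206 genes whose WT zygote values were both at the floor. Replicate 1 held 8 of them and replicate 2 held 4, so that without replicate 1 only 4 members were above the floor. Only 2810008D09Rik, with 2.63 and 1.27 FPKM, and Nucb2, with 1.48 and 1.21 FPKM, exceeded the floor in both cKO zygote libraries. The first of these values is the highest of any member, and the others are within 1 FPKM of the floor. Hes1 at 1.87, BC049762 at 1.42, Cyp26a1 at 1.27, Crip1 at 1.16, Insl6 at 1.14 and Gal at 1.05 FPKM were above the floor in cKO zygote replicate 1 alone. Plk2 at 1.69 and Crabp1 at 1.36 FPKM were above it in replicate 2 alone. Since WT zygotes were at the floor by choice, a member could only be equal or higher in cKO zygotes. In limma, 0 members differed between cKO and WT zygotes at an adjusted p under 0.05 (0.0208% of all genes higher and 0% lower), and 0 did at an unadjusted p under 0.05 (2.25% of all genes higher and 0.584% lower). For 2810008D09Rik cKO minus WT in log2(FPKM + 1) was 0.52 with a standard error of 0.42 (limma, adjusted p = 1), which did not pass the threshold. A test of the difference between the stages in the effect of genotype called 64 members lower and 0 higher at the 2-cell stage than in zygotes (10.2% and 1.58% of all genes, limma), but its 2-cell values entered the choice of the members and nothing is read from it. With any 1 of the 4 zygote libraries left out, this count was 0.

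Within cKO embryos, 60 of the 104 members, or 57.7%, had a 2-cell mean more than 3-fold above their zygote mean (22.8% of all genes), which leaves 44 below that step. The same step was passed by 421 of the 422 other genes first seen in WT 2-cell embryos. Both shares follow in part from the choice of the members, which caps the cKO 2-cell mean, and nothing is read from the contrast. With a pseudocount of 1 added to the means, 30 members passed, and 33 did when each cKO 2-cell library had to exceed each cKO zygote library more than 3-fold. At the other end, 6 members were at the floor in both cKO 2-cell libraries (0.155% of the 5817 genes with at least 10 FPKM in both WT 2-cell libraries), namely Lpar6, Nefl, Rln1, Cyp26a1, Junb and Gpr83. Taken singly, cKO replicate 1 had 16 members at the floor and cKO replicate 2 had 18, so that the 6 are those at the floor in both.

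The values of the cKO 2-cell libraries were more than 3-fold apart for 30 members, or 28.8%, and for 15.3% of the 5817 genes with at least 10 FPKM in both WT 2-cell libraries, which include the members. The members were chosen for low values in these libraries, and nothing is read from the 2 shares. With floor values counted as 1 FPKM, LOC100302567, BC080695, Gm15056, 4933411G11Rik and Cldn6 were the members furthest apart. Gm15056, for which RefSeq also gives the name Defb52, had 27.9 and 37.0 FPKM in WT and 1.94 and 18.9 FPKM in cKO 2-cell embryos. The cKO replicate 2 was the higher in these genes except Cldn6, where replicate 1 was, and over all members neither cKO library was the higher one in general, with replicate 2 higher for 51 members, replicate 1 higher for 47 and equal values for 6. In WT 2-cell embryos, replicate 2 was the higher for 71 members, or 68.3%. The share was 49.4% among the 5817 genes with at least 10 FPKM in both WT 2-cell libraries, which include the members. Cldn6 and LOC100302567 were among the members more than 3-fold apart between the WT libraries, both higher in replicate 2.

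In the GENCODE annotation of mm9, 103 of the 104 members were found, of which 95 were protein coding, 3 long intergenic RNAs, 2 processed transcripts and 3 pseudogenes, and LOC100302567 had no entry. Members were short genes, with a median span of 5745 bp, compared with 10830 bp for the other genes first seen in WT 2-cell embryos and 20886 bp for all genes of the table. Their longest transcript had a median of 1625 bases and 4 exons, against 2243 bases and 5 exons in the other genes of this kind and 2801 bases and 8 exons in the table. Cldn3, Junb, Lpar6 and Gm13034 were among the 11 members whose longest transcript has a single exon. These medians are a description and were not tested. Members lay on all autosomes and on the X chromosome, where Rbmx and Tsc22d3 are found.

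Within 500 kb of each other lay 9 pairs of neighbouring members, with 16 genes in all. The closest pair was Rln1 and Insl6 on chromosome 19, 6399 bp apart on the same strand, both of the relaxin and insulin-like family. Acy1, an aminoacylase, and Abhd14b lay 10404 bp apart on chromosome 9 on opposite strands. Acy1 had 12.3 and 11.3 FPKM in WT and 1.42 and 4.58 FPKM in cKO 2-cell embryos. It was lower than its neighbour in both WT libraries and above it in cKO replicate 2. On chromosome 17, Mrps34, Fahd1, Hs3st6 and E4f1 formed a chain with gaps of 44814, 90213 and 297677 bp. Hs3st6, a heparan sulfate sulfotransferase, had 18.1 and 23.3 FPKM in WT and 9.56 and 3.14 FPKM in cKO embryos, and E4f1, a ubiquitin ligase and transcription factor, had 13.9 and 14.6 FPKM in WT and 6.68 and 1.96 FPKM in cKO embryos. In this chain cKO replicate 1 was the higher for Hs3st6 and E4f1 and cKO replicate 2 for Fahd1 and Mrps34. The immediate early genes Ier2 and Junb lay 314060 bp apart on chromosome 8, and Dub1 and Usp-ps 203801 bp apart on chromosome 7.

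Exons of 19 members overlapped those of another annotated gene, 16 of them on the opposite strand and 4 on the same strand. Since Smart-seq2 libraries do not keep the strand, reads of such pairs cannot be told apart. Among the genes named above this includes Nefl with Nefm, Lpar6 with Rb1, Cldn3 with Wbscr25, Prss8 with Myst1, Tssk6 with Ndufa13, Dnd1 with Wdr55, Tmem79 with 0610031J06Rik, Mrps34 with Mapk8ip3 and D430020J02Rik with Ncapg2 on opposite strands. On the same strand, 2810008D09Rik contains the small RNA gene SCARNA16, Ang overlaps Rnase4, Mrps34 overlaps Nme3 and Gm2016 overlaps Gm2075.

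Promoter sequences were matched for 80 of the 104 members in a RefSeq table of build GRCm38.p6. It covers 250 bases before to 50 bases after each start. Only the windows of the 4 genes printed below were located in mm9, by exact match. With 76.9% of the members matched, fewer than 80%, a comparison of promoter properties would be void and is not given. No window was matched for 24 members, among them Hes1, Ier2, Nfe2, Bambi, Dnd1, Insl6, Nefl, Cthrc1, Prss8, Pif1 and Mrps34. The letters TATAAA, searched on both strands, occur in 14.2% of all 27025 promoters of the RefSeq table and in 8.57% of the promoters matched to genes of the expression table. The letters TGACGTCA, which read the same on both strands, occur in 1.88% and 3.06% of them. Member windows with TGACGTCA include those of Plk2 and Cldn6, and member windows with TATAAA include those of the relaxin Rln1 and the beta-defensin Defb48, from which nothing is read about the members in general. The last 120 bases before the RefSeq start are printed for these 4 genes, chosen after the matches were seen, to show the sequence beside a lost and a reduced transcript, with the letters searched in capitals. Rln1 lies on the reverse strand, with the window at chr19:29409161-29409280 and the capitals beginning 10 bases before the start. Defb48 is also on the reverse strand, at chr14:63603348-63603467, with the capitals beginning 30 bases before the start. Plk2 is on the forward strand at chr13:111185132-111185251 with the capitals beginning 62 bases before the start, and Cldn6 on the forward strand at chr17:23816212-23816331 with the capitals beginning 40 bases before the start. A match describes the letters in this window and says nothing of whether a factor binds there.
Rln1: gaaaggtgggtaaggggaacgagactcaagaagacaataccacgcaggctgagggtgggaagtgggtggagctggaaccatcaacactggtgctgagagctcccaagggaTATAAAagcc
Defb48: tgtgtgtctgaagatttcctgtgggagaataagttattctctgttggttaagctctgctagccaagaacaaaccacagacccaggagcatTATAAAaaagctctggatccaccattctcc
Plk2: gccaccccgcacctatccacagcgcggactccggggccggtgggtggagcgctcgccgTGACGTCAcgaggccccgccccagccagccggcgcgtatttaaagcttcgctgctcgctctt
Cldn6: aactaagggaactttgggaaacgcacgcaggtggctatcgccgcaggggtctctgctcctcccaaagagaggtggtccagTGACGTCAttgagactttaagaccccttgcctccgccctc

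From a list of genes known for expression at the 2-cell stage, 29 were matched to the table by symbol, of which 12 were first seen in WT 2-cell embryos and 2, Dub1 and Lmx1a, were members. The member Usp17l5 stands on the list under its RefSeq symbol Usp17lc, which the table does not use, and is not among the 29. Across the 29, limma called 12 lower and 4 higher in cKO 2-cell embryos (24.6% and 6.16% of all genes), with a median log2 difference of -1.21, compared with -0.30 over all genes, and 0 in either direction in zygotes. Among the other list genes first seen in WT 2-cell embryos, which did not reach the limit, Tdpoz2, of a family of repeated 2-cell genes, was at 50.4 and 100.4 FPKM in WT and at 26.3 and 26.8 FPKM in cKO 2-cell embryos, and Fgf1, a fibroblast growth factor, at 30.3 and 34.6 FPKM in WT and at 13.3 and 11.2 FPKM in cKO embryos. Both were lower in both cKO libraries, and among these list genes only Ubtfl1 and Eif1a had a cKO mean above the WT mean. Ubtfl1, a relative of a nucleolar transcription factor, was at 128 and 128 FPKM in WT and at 109 and 165 FPKM in cKO 2-cell embryos, and Eif1a, a translation initiation factor, at 73.8 and 70.3 FPKM in WT and at 118 and 139 FPKM in cKO embryos. The genotypes overlapped for Ubtfl1, and both cKO libraries were above both WT libraries for Eif1a, unlike Dub1 and Lmx1a.

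From a list of developmental regulators that are classical targets of polycomb silencing, 71 genes were matched to the table by symbol. Those first seen in WT 2-cell embryos at 10 FPKM or more include Tbx3, a T-box repressor, at 15.05 and 16.8 FPKM in WT and 6.23 and 4.82 FPKM in cKO 2-cell embryos, and Gata1, an erythroid factor, at 33.3 and 24.1 FPKM in WT and 65.1 and 72.3 FPKM in cKO embryos. Tbx3 was lower in both cKO libraries, within 3-fold, while Gata1 was higher in both. Of the 71 genes, limma called 36 lower and 2 higher in cKO 2-cell embryos (24.6% and 6.16% of all genes), with a median log2 difference of -0.61, compared with -0.30 over all genes, and 0 in zygotes.

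Klf10, Hspa2, Phlda2, Ankrd22 and Cdk16, which the study names as early zygotic genes with a lower level in cKO 2-cell embryos, were above the floor in WT zygotes and so are not members. Limma called 5 of these 5 lower in cKO 2-cell embryos (24.6% of all genes), from which nothing is read since they were named for this direction, and 0 in zygotes. Among 21 housekeeping genes of the major activation wave none was a member, 8 were called higher and 1, Hspa1a, lower in cKO 2-cell embryos (6.16% and 24.6% of all genes), with a median log2 difference of 0.28, compared with -0.30 over all genes, and 0 were called in zygotes. Pdxk, pyridoxal kinase, was one of 2 of them first seen in WT 2-cell embryos, at 61.2 and 54.5 FPKM in WT and 169 and 204 FPKM in cKO embryos, and it was therefore higher in both cKO libraries where the members were lower.

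The labelled stage and tissue were checked with marker genes. All 13 oocyte and early embryo markers were in the table, and their summed FPKM was 17420 and 18647 in WT zygotes, 18680 and 19046 in cKO zygotes, 9197 and 7553 in WT 2-cell embryos and 7081 and 11480 in cKO 2-cell embryos. These sums were high in all 8 libraries. Oosp1 was the most abundant of the 13 in the WT libraries and Dppa3 in both cKO 2-cell libraries, where it made up most of the sum, with 5888 and 8774 FPKM. Limma called 7 of the 13 lower and 1, Dppa3, higher in cKO 2-cell embryos (24.6% and 6.16% of all genes). None of the members belongs to this list.

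Of 15 cumulus and granulosa markers 6 were in the table, without the defining genes Fshr, Amh, Inha, Has2 and Ptx3. Their sum was 32.8, 29.0, 28.6 and 29.1 FPKM in the WT and cKO zygote libraries, 36.7 and 48.1 in WT 2-cell and 23.5 and 23.4 in cKO 2-cell embryos. Most of the sum in zygotes came from Cyp19a1, at 26.7 and 22.3 FPKM in WT and 22.8 and 22.6 FPKM in cKO zygotes. Amhr2, the most abundant in WT 2-cell embryos, was at the floor in all zygote libraries and was called lower in cKO 2-cell embryos. Sperm and spermatid markers, 4 of 7 in the table, summed to 23.1, 16.5, 19.7 and 18.7 FPKM in the zygote libraries, to 7.28 and 11.4 in WT 2-cell and to 4.97 and 4.00 in cKO 2-cell embryos. Prm2 made up most of the sum in zygotes, at 20.1 and 13.5 FPKM in WT and 15.7 and 15.7 FPKM in cKO zygotes. Tnp1, the most abundant at the 2-cell stage, was called lower in cKO embryos. It was at 4.28 and 5.69 FPKM in WT, at 1.97 FPKM in cKO replicate 1 and at the floor in cKO replicate 2.

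Of 10 oviduct markers 5 were in the table, without Foxj1, Col1a1, Col1a2, Col3a1 and Acta2, and the member Krt18 is one of them. Their sum was 5 FPKM in WT zygote replicate 1, 5.00 in WT zygote replicate 2, 5.05 and 5.00 in cKO zygotes, 69.1 and 108 in WT 2-cell and 83.8 and 118 in cKO 2-cell embryos. Epcam, the most abundant at the 2-cell stage, reached 75.2 and 114 FPKM in cKO 2-cell embryos against 44.4 and 82.4 FPKM in WT, with overlapping genotypes, while Krt8, Krt18 and Pdgfra were called lower. Blood markers, 3 of 7 in the table, summed to 6.08 and 18.5 FPKM in WT 2-cell and 5.31 and 3.44 FPKM in cKO 2-cell embryos, and to 5.18, 4.39, 5.49 and 3.59 FPKM in the WT and cKO zygote libraries. Lyz2 was called lower in cKO 2-cell embryos (24.6% of all genes). Cd68 was the highest blood marker in zygotes, and Hba-a1, with the highest mean in WT 2-cell embryos, was at 8.66 FPKM in WT 2-cell replicate 2, at 1.99 FPKM in cKO 2-cell replicate 1 and at the floor in the other 6 libraries, and Ptprc, Alas2, Hbb-b1 and Hbb-bs were not in the table. The part of these cell types in the members' values was not tested.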

How the data were processed

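The authors trimmed reads to 50 bases, mapped them to mm9 with TopHat2 2.1.1 and estimated FPKM with Cufflinks 2.2.1, per the labels and the study's methods. They deposited 1 table of FPKM values, in which values under 1 had been set to 1. FPKM carries no counts, so depth is unknown and precision rests on 2 libraries per group. The 7 ChIP-seq samples were not analysed here. From the table, members were found with Python 3.11.15, numpy 2.4.6 and pandas 2.3.3, and plots were drawn with matplotlib 3.10.9. All genes were fitted with limma 3.58.1 in R 4.3.3 on log2(FPKM + 1). A single model held the 4 groups, left 4 residual degrees of freedom and used a prior that follows the mean level (trend), and adjusted p-values (Benjamini-Hochberg) were called under 0.05. This scale understates the change of low genes. The fit was tested on simulated data. Positions are from GENCODE on mm9. Alternatives covered thresholds, pseudocounts, scaling, the model and leaving out each library.

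The members and lists were chosen with earlier results of these data known, and members were grouped by role once they were known. Named were Usp16, the 10 members with the highest WT mean, the 10 with the largest fold, those above the floor in both cKO zygote libraries, the 3 genes on each side of the limit, the 5 with the most unlike cKO libraries, members of the lists, up to 5 further members per role and the study's early zygotic genes. Further genes named as neighbours, relatives, list genes or for their promoter, role or floor values were chosen after their values were seen.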

Additional observations from a re-analysis of the deposited data

Results flagged for a closer look

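The difference between genotypes changed with stage for Usp16, with a log2 difference at the 2-cell stage that was higher than that in zygotes by 2.65, with a standard error of 0.48 (limma, Benjamini-Hochberg adjusted p = 0.0251). Leaving out 1 library at a time gave adjusted p-values from 0.00531 to 0.126 for this change.

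For 64 of the 104 members the log2 difference between cKO and WT was lower at the 2-cell stage than in zygotes at an adjusted p under 0.05 in limma (10.2% of all genes), a contrast that contains the values that chose the members, so that nothing is read from it. With any 1 of the 4 zygote libraries left out, this count was 0, after median-ratio scaling it was 33, and without cKO 2-cell replicate 1 it was 95. The noncoding gene 2810008D09Rik and the nesfatin precursor gene Nucb2 were above the floor in both cKO zygote libraries but not in WT zygotes, while at the 2-cell stage each was lower in either cKO library than in either WT library. The change between stages was -2.20 for 2810008D09Rik (standard error 0.59, adjusted p = 0.064 from limma) and -2.73 for Nucb2 (standard error 0.79, adjusted p = 0.0762 from limma), and neither passed the threshold. Outside the members, Hspa2 and Phlda2, both named by the study, were higher in both cKO zygote libraries and lower in both cKO 2-cell libraries. The change between stages was -2.73 for Hspa2 (adjusted p = 0.00818 from limma) and -2.66 for Phlda2 (adjusted p = 0.00835 from limma). Both calls were lost with any 1 of the 4 zygote libraries left out, with adjusted p-values from 0.0536 to 0.0732.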

How the results depend on the processing

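The number of members was 104, and it was 191 with a 2-fold and 57 with a 5-fold limit, 206 with a WT minimum of 5 FPKM and 35 with one of 20 FPKM, 58 when no cKO value was allowed within 3-fold of a WT value and 50 after median-ratio scaling, which scales the cKO 2-cell values up relative to WT, and 136 with libraries scaled to an equal sum. Leaving out 1 library at a time gave 107 to 154. Of the 104 members, 1 was above 2 FPKM in a cKO zygote library, against 10 above the floor, and leaving out either cKO zygote library gave 4 to 8. At most 2 FPKM in both cKO 2-cell libraries was found for 10, against 6 at the floor, and 16 to 18 were at the floor with 1 of these libraries left out. More than 3-fold above cKO zygotes in cKO 2-cell embryos were 60, compared with 33 when each library had to pass, 30 with a pseudocount of 1, and 53 to 61 with 1 library left out. Limma called 0 members in zygotes under all alternatives. At the 2-cell stage it called 97 members, 0 of them from the 2-cell libraries alone, where fewer samples enter the fit, and 69 to 102 with 1 library left out. For Usp16, the log2 difference in zygotes was -3.23 with an adjusted p = 0.0324 after median-ratio scaling and ranged from -3.39 to -3.02 with 1 library left out. At the 2-cell stage it ranged from -1.04 to -0.066, and -1.04, without cKO replicate 1, passed the threshold. Where no reason is given, the cause was not tested. Replicate numbers are shared by the groups, but deviations of same-numbered libraries correlated across genes at 0.497 in zygotes and -0.239 at the 2-cell stage, and the labels do not say whether a number stands for a shared batch. A fit with the replicate number as block called 94 members at the 2-cell stage and 0 in zygotes, and Usp16 had an adjusted p = 0.842 in zygotes. With crossed numbers, chosen after seeing the data, it called 98 members. Of 490 alternative ratios for 70 named genes, 449 moved by less than the spread between replicates, 28 were higher, 13 were lower and 0 changed direction. These genes include Usp16, the study's early zygotic genes and the genes just outside the limit, which are not members.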
